A study of Mus musculus with 2 samples.

Results

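The basement membrane genes described here are the laminin chain genes Lama2, Lama4, Lama5, Lamb1, Lamb2 and Lamc1, the nidogen genes Nid1 and Nid2, and Hspg2, which encodes perlecan. They were chosen by the gene name of each probe, with Lamb1 written Lamb1-1 on the array, and every probe of each gene was taken. This gave 9 genes with 14 probes, out of 19730 named genes and 41174 probes. Of the 9 genes, 8 had at least 1 probe well above background, the scanner software's own call of a spot clearly brighter than its surroundings, and Nid2 had none. The measured cells were NIH3T3, an established line of mouse embryonic fibroblasts, grown in medium with fetal bovine serum. Stable lines were selected with G418, an antibiotic that untransfected cells do not survive. The control group carried the empty plasmid pcDNA3.1, and the other group carried pcDNA3.1-MARVELD1. Total RNA of each group was labelled with Cy3 and hybridised to 1 Agilent mouse whole-genome array, so the comparison rests on 1 array per group and has no replicates. The labels do not say whether a stable line was 1 clone or a mixture, or from which species the MARVELD1 insert came.

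Laminins are secreted, often cross-shaped proteins, each built from an alpha, a beta and a gamma chain that wind together in the endoplasmic reticulum. Outside the cell many laminins, though not all, assemble into a sheet. Laminins bind integrins and dystroglycan through the end of the alpha chain. Nidogens bind the gamma-1 chain and link the laminin sheet to type IV collagen, and perlecan, a large heparan sulfate proteoglycan, binds both networks and holds growth factors. Fibroblasts make several of these proteins, which take part in the basement membranes beneath epithelia and around vessels, muscle and nerve.

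Spots well above background made up 68.7% of the empty vector array and 69.0% of the other, and 0 spots were saturated. Both arrays lay on 1 slide. Values were log2 processed intensities relative to the 75th percentile of each array, which was 768.1 for the empty vector and 703.3 for MARVELD1. With this scaling the median gene had a log2 difference of 0.19, so those of Lama4, Lama5 and Lamc1 are also given relative to that median. The probes of Marveld1 gave log2 differences of -0.34 and -0.42, so they do not bear out the label of the array labelled MARVELD1, and whether they read the insert is unknown. Every direction given here compares the array so labelled with the empty vector array.

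The overlapping probes of Lama4 and a probe each of Lamb1 and Lama2 are shown because they define what was measured. Each probe is a DNA oligonucleotide of 60 bases. Positions are on mm9, as the files give them, and the exon or untranslated region that holds each probe was not determined here. Capitals mark the 29 bases that the Lama4 probes A_51_P212420 and A_52_P7554 share.

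Lama4 A_51_P212420, chr10:38825794-38825853, plus strand: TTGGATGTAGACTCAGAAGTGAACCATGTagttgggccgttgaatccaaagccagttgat

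Lama4 A_52_P7554, chr10:38825032-38825822, plus strand: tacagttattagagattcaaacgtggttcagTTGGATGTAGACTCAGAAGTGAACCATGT

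Lamb1 A_51_P244287, chr12:32012684-32014030, plus strand: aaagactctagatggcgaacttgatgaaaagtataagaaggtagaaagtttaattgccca

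Lama2 A_52_P652859, chr10:26710714-26712724, minus strand: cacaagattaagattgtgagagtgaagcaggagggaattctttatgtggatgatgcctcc

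Each of these 4 probes has 1 reading frame of 3 with no stop codon. The Lamb1, Lama2 and A_52_P7554 probes lie in genomic intervals of 1347, 2011 and 791 bases, longer than the probe. Because A_51_P212420 and A_52_P7554 overlap, their values are not independent readings of Lama4. No other pair of member probes shared a run of more than 9 bases.

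Among the laminin alpha chains, Lama4 was lower and Lama5 higher on the array labelled MARVELD1. Lama4 encodes the alpha-4 chain of vessel, fat and mesenchymal basement membranes. Its brightest probe, A_51_P212420, read 2117 ± 212 for the empty vector and 630.9 ± 63.7 for the array labelled MARVELD1, where the error is the scanner software's estimate for that 1 spot, mostly a preset proportional term and not a measured spread. The log2 difference was -1.62, or 3.07-fold lower, and -1.81 relative to the median gene. Of the other Lama4 probes, A_52_P7554 read 1227 ± 123 and then 309.9 ± 33.0, which is 3.62-fold lower or -1.86 in log2. A_51_P212427 read 271.5 ± 29.3 with the empty vector against 38.68 ± 12.0 on the other array. There it was not well above background, so the 6.43-fold lower value of this probe rests on a dim reading. That difference was -2.68 in log2, and -1.35 with normexp, a background correction tried as an alternative.

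The remaining Lama4 probe, A_52_P78714, lies furthest 5-prime and was designed from a cDNA clone. It read 74.47 ± 13.1 and 47.79 ± 12.4, and was well above background on the empty vector array alone. It gave a bound of -0.51 in log2, within the spot SD of 0.62 at that intensity, so a difference was not detectable by this probe. The other 3 Lama4 probes were lower by more than 2-fold. Among all 29535 detected probes 4.62% were at least 2-fold lower, 5.88% higher and 10.5% either.

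Repeated spots give a scale for the Lama4 difference. Over the 25 repeatedly printed probes nearest in intensity, the median SD of a difference between single spots was 0.13 for A_51_P212420 and 0.19 for A_52_P7554, on the log2 scale. Different probes of 1 gene had a pooled SD of 0.54 over 5489 genes. The Lama4 difference was larger than both. The spot SD is technical, while the SD between probes was not split into a technical and another part. Both say nothing of the spread between cultures. The difference also varied with a probe's position along the transcript. Over 4607 genes with probes at least 500 bases apart, the difference at the 5-prime end minus that at the 3-prime end had a median of -0.28. Its quartiles were -0.69 and 0.14. The overlapping Lama4 probes differed by -0.24, but their ends lie only 31 bases apart, so this pair cannot show an effect of position. From the 5-prime to the 3-prime end, the Lama4 probes gave -0.51, -2.68, -1.86 and -1.62 in log2. The values -0.51 and -2.68 were bounds that rest on dim readings. The part of position in these values was not tested. Of all 16545 genes with a detected probe, 1.22% had a difference as low as or lower than that of Lama4.

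**Figure D1:**
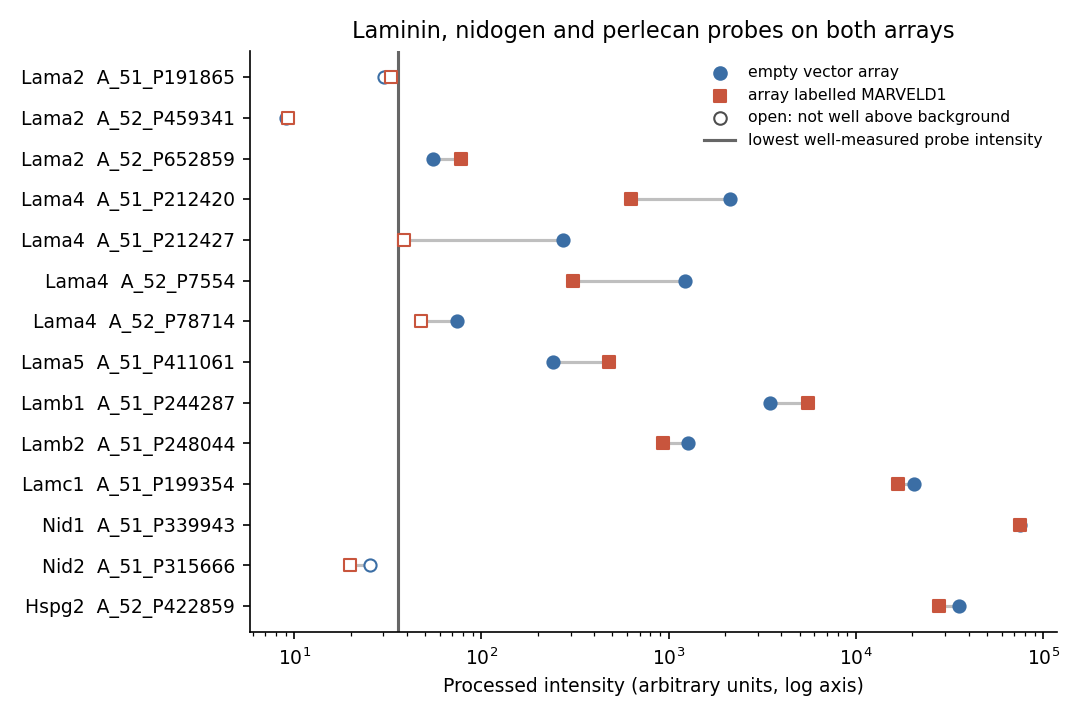
Processed intensity of each of the 14 probes on a log axis, with circles for the empty vector array and squares for the array labelled MARVELD1. The Lama4 squares lie left of their circles, from 2117 to 630.9 for the brightest probe, while the Nid1 symbols coincide for the probe read at 74917 and 75122.

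Lama5 encodes the alpha-5 chain, which is widespread in adult epithelial and vascular basement membranes. Its only probe, A_51_P411061, read 241.2 ± 25.6 with the empty vector against 477.4 ± 48.7 on the other array. The log2 difference was 1.11, or 2.16-fold higher, against a spot SD of 0.19, and 3.94% of genes were as high or higher. Relative to the median gene the difference was 0.92, which is less than 2-fold. The files place this probe at chr2:179911062-179911076, an interval of 15 bases for a probe of 60, so its mapping is incomplete and no second probe checks it.

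Lama2, for the alpha-2 chain of muscle and Schwann cell basement membranes, was close to the detection limit. The probe A_52_P652859 read 55.02 ± 9.20 and 77.60 ± 11.0, little above the lowest well-measured probe intensities of those arrays, 36.5 and 36.0. Its log2 difference of 0.62 equalled the spot SD of 0.62 at that intensity, so a difference was not detectable at this signal. The second Lama2 probe, A_51_P191865, was printed 10 times. On the empty vector array its spots ran from 15.3 through a median of 33.1 to 43.4, and on the other array the 7 usable spots ran from 28.1 through 34.6 to 36.8. These ranges overlap, and neither array had this probe well above background. The third, A_52_P459341, read at the software's substitute value for very low signals on both arrays.

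**Figure D2:**
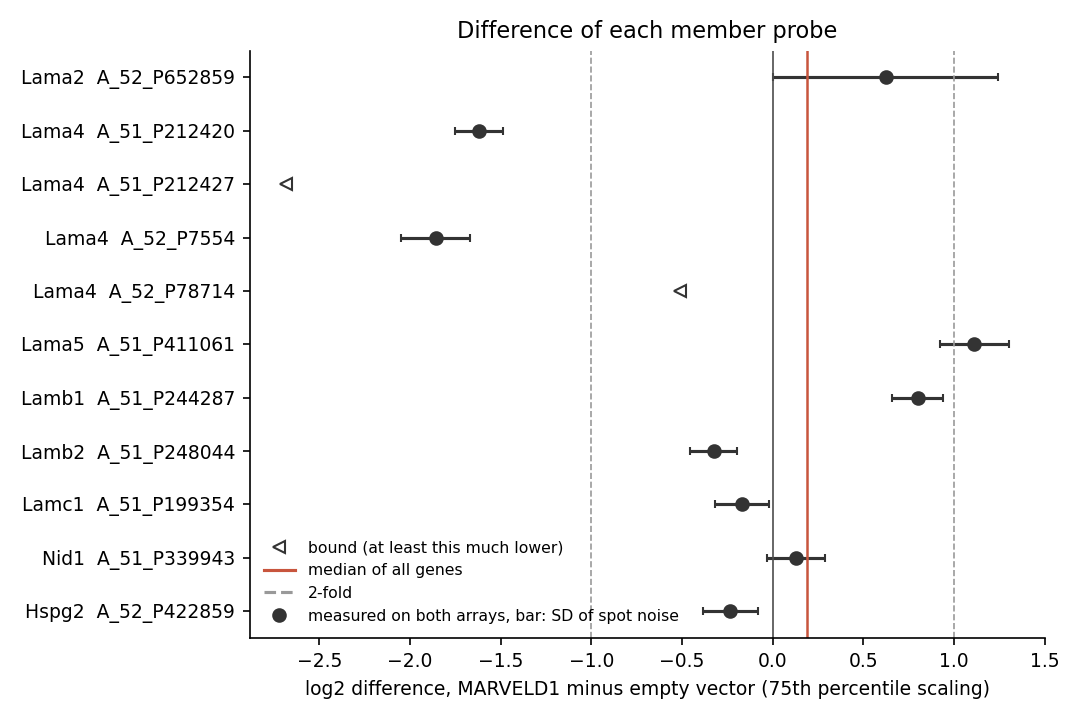
Log2 difference of each probe that was well above background on at least 1 array. Points are probes measured on both arrays with the SD of spot noise, open triangles are bounds, dashed lines mark 2-fold, and the red line is the median of all genes at 0.19. The measured Lama4 probes lie at -1.62 and -1.86, beyond 2-fold, and Lama5 lies at 1.11.

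The beta chain genes Lamb1 and Lamb2 differed in opposite directions. Lamb1 encodes the beta-1 chain that is found in most laminins, and Lamb2 the beta-2 chain, known from the neuromuscular junction and the kidney filter. Lamb1 read 3464 ± 347 with the empty vector and 5519 ± 552 with MARVELD1, which is 1.74-fold higher or 0.80 in log2, with a spot SD of 0.14. Lamb2, measured by A_51_P248044 (chr9:108392189-108392248), read 1271 ± 127 and 928.2 ± 93.2 in that order, 1.25-fold lower or -0.33 in log2, with a spot SD of 0.13. Neither passed 2-fold, and both are larger than the noise of single spots. The Lamb2 difference was smaller than the SD of 0.54 among probes of the same gene, and neither gene has a second probe.

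Lamc1 encodes the gamma-1 chain, which is shared by most laminins and carries the nidogen binding site. The probe A_51_P199354 (chr1:155066155-155066213), described in the files under the chain's older name laminin B2, read 20529 ± 2050 and 16720 ± 1670. The log2 difference was -0.17, near the spot SD of 0.15. Relative to the median gene it was -0.36, which is larger than that SD.

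Nid1 and Hspg2 were bright on both arrays and within 2-fold between them. Nid1 (A_51_P339943, chr13:13604417-13604476) read 74917 ± 7490 and 75122 ± 7510, so its log2 difference was 0.13 with a spot SD of 0.16. This was the smallest difference among the 8 detected genes. Hspg2 (A_52_P422859, chr4:137126392-137126451) read 35539 ± 3550 and 27690 ± 2770, which is 1.18-fold lower or -0.23 in log2. This is larger than its spot SD of 0.15. Nid2, the other nidogen gene, read 25.28 ± 8.68 and 19.91 ± 9.01 by its only probe (A_51_P315666, chr14:20630490-20630549). Neither array had it well above background, so no difference is given for it.

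As a group the genes did not differ in 1 direction. Of the 8 detected genes, 1 was at least 2-fold lower (Lama4) and 1 at least 2-fold higher (Lama5), while 6 lay within 2-fold. Among all 16545 genes 3.52% were at least 2-fold lower and 5.4% at least 2-fold higher, 8.92% in either direction. The shares were 4.36% lower and 3.96% higher with scaling to the array median. With 8 genes, 1 call in each direction is too few to be set apart from that background. The median log2 difference of the 8 was -0.02, against 0.19 for all genes.

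**Figure D3:**
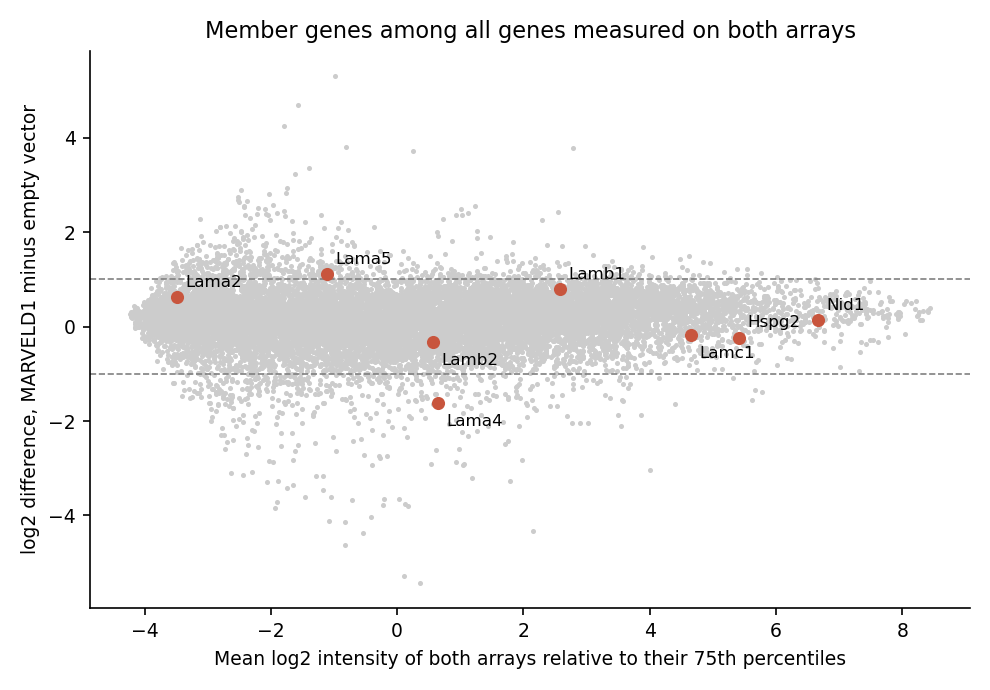
Log2 difference against mean log2 intensity for the genes measured on both arrays (grey) and the 8 detected member genes (red), with dashed lines at 2-fold. Lama4 at -1.62 lies below the lower line together with other genes, Lama5 at 1.11 lies near the upper line, and Lamc1, Hspg2 and Nid1 lie within the lines at the bright end.

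The chain genes differed unequally between the arrays, a comparison that no scaling by a single factor per array can alter. The log2 difference of Lama4 minus that of Lama5 was -2.73, equal to 6.64-fold, with a spot SD of 0.22 for this contrast. Lama4 minus Lamb1 was -2.42 and Lama4 minus Lamc1 was -1.45, with a spot SD of 0.19 in each. Lamb1 stood 1.13 above Lamb2, or 2.18-fold, again with a spot SD of 0.19. Lama5 stood 0.49 above Lama2, less than the spot SD of 0.65. Each contrast also sets different probes against each other, which the spot SD does not cover. Different probes of the same gene had a pooled SD of 0.54.

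The sign of Nid1 depended on the scaling. It was higher with the 75th percentile, the array median (0.02) and the authors' deposited table (0.02), but lower with quantile normalization (-0.17), loess (-0.22) and normexp (-0.22). Lama2 ran from 0.62 to 0.19, Hspg2 from -0.23 to -0.55 and Lamc1 from -0.17 to -0.47 over these scalings. Lama4 lay between -1.73 and -1.44 and stayed past 2-fold under each. Lama5 dropped to 0.80 with normexp and just under 2-fold in the authors' deposited table, whose values for it are 1.94 and 3.87. In that table, which lists 10 of the 14 probes, the Lama4 probe A_51_P212420 has a value of 17.0 for the empty vector and 5.12 for MARVELD1.

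**Figure D4:**
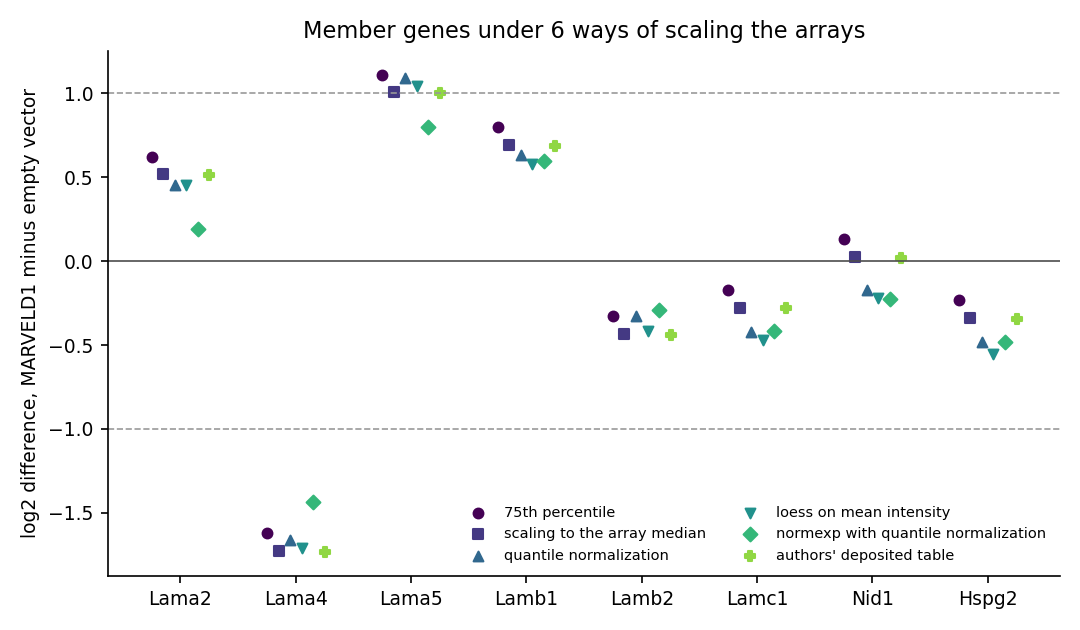
Log2 difference of the 8 detected genes under 6 ways of scaling the arrays, 1 symbol per scaling, with dashed lines at 2-fold. Lama4 stays below -1.4 throughout, Lama5 crosses the 2-fold line, and Nid1 lies on both sides of 0.

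The receptors for these proteins had log2 differences from -3.21 to 2.39, and values in this and the next paragraphs without a unit are log2 differences. Of 10 detected laminin and nidogen receptor genes, 2 were at least 2-fold lower and 2 higher, where all genes had 3.52% lower and 5.4% higher. Dag1, which encodes the dystroglycan that anchors laminin alpha chains, read 3297 and 1001 by its brighter probe, or 3.02-fold lower, and its other probe gave -1.595. Itgb4, the beta-4 integrin subunit, was lower at -3.21, but its probes disagreed, the others giving -3.42 and 1.59. Itga3, which pairs with the beta-1 subunit as a laminin receptor, was 2.23-fold higher, with other probes from 0.20 to 1.38, and passed 2-fold under 7 of 10 alternatives. Itga7, a muscle laminin receptor subunit, was 5.25-fold higher at 79.76 and 383.2, while its other probe gave -0.19. The other receptor genes lay within 2-fold by their brightest probes. Among them, Itgb1 was at -0.73, with -1.80 from its other probe. Itga6 was at 0.20, with other probes from -0.59 to -0.24, and its sign turned under some alternatives.

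The enzymes that add laminin-binding sugars to dystroglycan had 0 of 8 detected genes past 2-fold, beside 8.92% of all genes in either direction. With 8 genes, 0 cannot be set apart from that share. Pomt2, an O-mannosyltransferase gene, was at -0.39. Heparan sulfate enzymes, which build and edit the chains carried by perlecan, had 2 of 17 higher and 0 lower, beside 5.4% and 3.52% of all genes. With the array median, loess, normexp or the authors' deposited table, 0 were higher. The 2 genes were Extl2 (2.12-fold, past 2-fold under 6 of 10 alternatives) and Ndst1, an N-sulfating enzyme (2.10-fold, under 4 of 10, with other probes from -0.24 to 0.48). Relative to the median of all genes, Itga3, Extl2 and Ndst1 were each under 2-fold. The lowest of the heparan sulfate list were the linker enzyme genes B4galt7 at -0.75 and B3gat3 at -0.62. The median of this list, 0.20, was close to that of all genes.

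Of 6 type IV collagen genes 1 was at least 2-fold lower, Col4a5 at 2.31-fold, and 0 were higher, beside 3.52% and 5.4% of all genes, with a list median of -0.40. Col4a1 and Col4a2, whose chains form the main type IV collagen, were at -0.37 and -0.43, with lower values of -0.72 and -1.60 from their other probes. The mean of all probes, as an alternative, put 3 of the 6 past 2-fold lower, beside 3.32% of all genes under that setting. Among the 3 was Col4a6, at -0.43 by its brightest probe, whose other probes disagreed at -3.84 and 0.24. Among 12 other detected components Tinagl1 was 2.09-fold lower, with -1.87 from its other probe, and Egflam, a dystroglycan ligand, 2.75-fold higher, with 0.65 from its other probe. These were 1 gene in each direction, beside 3.52% lower and 5.4% higher among all genes, and the list median was 0.05. Among other laminin chain genes, Lama1 and Lamb3 were not well above background. Lama3 was at 0.40 by its brighter probe and at 1.18 by the other. Lamc3 was at 0.045, and its sign turned under some alternatives. Of 2 detected netrin genes, which share laminin domains, 0 passed 2-fold, beside 8.92% of all genes in either direction.

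Among genes for proteases and heparanase that cut these proteins, 2 of 10 were higher and 0 lower, beside 5.4% and 3.52% of all genes. The count of lower genes was 1 with the array median, quantile normalization, loess or the authors' deposited table, and with normexp 2 were lower and 1 higher. The 2 higher genes were the stromelysin gene Mmp3 (2.81) and Hpse, the heparanase gene, which read 63.03 and 153.2, or 2.65-fold higher. Mmp2 was at -0.95 and passed 2-fold lower under 5 of 10 alternatives. Of 11 detected heparin-binding growth factor genes 2 were lower, Fgf10 at 2.70-fold and Ptn at 2.65-fold, and 1 was higher, Hbegf, at 1.89, beside 3.52% lower and 5.4% higher among all genes. With normexp 1 was lower.

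**Figure D5:**
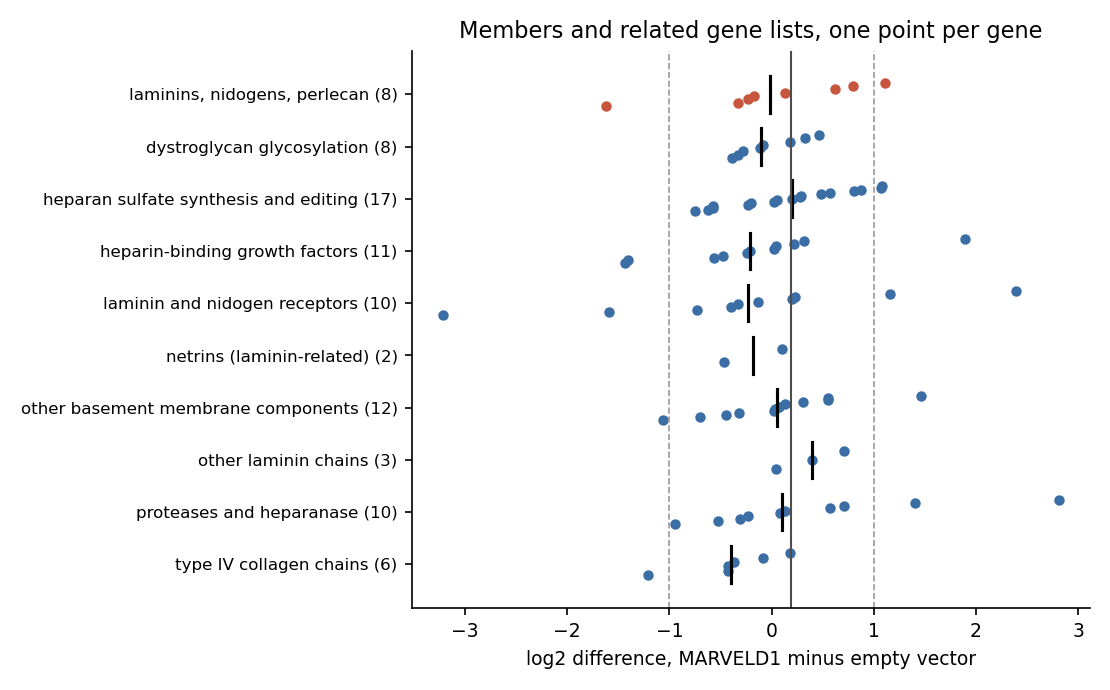
Log2 difference of the detected laminin, nidogen and perlecan genes (red) and of related gene lists (blue), 1 point per gene, with the list median as a black bar, the median of all genes as a grey line and dashed lines at 2-fold. The receptor list spreads widest on the low side, from -3.21 to 2.39. The dystroglycan glycosylation list of 8 genes stays within 2-fold, a limit that 8.92% of all genes passed.

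Markers of the labelled cell type were present. All 11 fibroblast markers were well above background on both arrays, as were 15595 of the 19730 named genes by their brightest probe. All 6 macrophage and all 4 Schwann genes described below were too, so this call does not set the cell type apart. Of the 11 fibroblast markers 3 were at least 2-fold lower (Pdgfrb, Col3a1 and Fn1) and 0 higher, beside 3.52% and 5.4% of all genes. Another probe gave -0.10 for Col3a1, and other probes gave -2.47 to -0.08 for Fn1. In sign, 7 of the 11 were negative and 4 positive, including the bright S100a4 at 0.25 and Vim at 0.21. The signs of S100a4 and Vim turned under some alternatives. The 11 genes' summed processed intensity, before any scaling between arrays, was 737700 for the empty vector and 579600 for MARVELD1. The list median of -0.54 lay below that of all genes. Among markers of other cells that make laminins, the summed intensity was 1980 and 1552 for 7 endothelial genes, with Cdh5 at 1289 and 708.5 and Pecam1 at 31.89 and 43.04. After scaling, 6 of these 7 genes were positive, but so were most of all genes. The median of the 7 was 0.33, against 0.19 for all genes. Pecam1 and Tie1, both among the 6, were bounds, not well above background on the empty vector array. The unscaled sum was 5346 and 3238 for 4 Schwann genes, most of it from Sox10 at 4875 and 2774. It was 1039 and 1348 for 4 of 5 skeletal muscle genes, with Des below that call on both arrays. For parietal endoderm it was 16000 and 17750 over 3 of 5 genes, mostly from Thbd, with Gata6 and Sox7 not well above background. Of 4 adipocyte genes, Adipoq and Cfd were not well above background, while Fabp4 read 6234 and 1505, and the sum was 6420 and 1692. Of 6 epithelial genes, Epcam and Cdh1 were not well above background, and the sum was 3793 and 1110, with Krt14 at 3227 and 212.4. Krt5 was 2.02-fold higher. Krt18, well above background on 1 array, was 2.35-fold higher by its bound, with 0.63 as its lowest log2 value over the alternatives. The median of the 4 detected epithelial genes was 0.55. For 6 macrophage genes the sum was 1576 and 1451, and their median after scaling was 0.18, near that of all genes. After scaling, the medians of the adipocyte (-0.89), parietal endoderm (-0.35) and Schwann (0.06) genes also lay below that of all genes. The part of these markers in the Lama4 difference was not tested. In RNA from whole cultures, fewer cells of a kind and less RNA per cell cannot be told apart.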

How the data were processed

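The authors' deposited scanner files give the fluorescence intensity of each spot, read with Agilent Feature Extraction 9.5.3.1, per the file headers. The processed intensity is the spot mean minus a fitted spatial surface, divided by a multiplicative trend, with a substitute for very low signals, and local background is not subtracted. A table of normalized intensity that the authors deposited equals the processed intensity divided by 124.6 for the empty vector and by 123.3 for MARVELD1, within 1% for at least 99.6% of 26829 probes. Its column medians are 3.11 and 2.94, and how the factors were set is not given in the sources used here. Outlier spots, 116 and 223, were left out. Log2 processed intensity minus each array's 75th percentile was averaged where a probe had several spots. Names came from RefSeq genes (assembly GRCm38.p6), with 25001 probes matched by accession, 5960 by symbol, 1767 by a synonym and 8446 not matched. The brightest probe stood for a gene, among probes well above background on at least 1 array, by the majority of usable spots. Where 1 array was not well above background, only a bound is given. It sets the bright value against the dim probe's reading or that array's lowest well-measured value, whichever is higher. The bound does not allow for the error of the dim reading, and it can shrink under another background correction. With 1 array per group no test, p-value or standard error is given, and 2-fold is a limit of size. Python 3.11.15 and limma 3.58.1 (normexp, quantile and loess alternatives) were used, and the calculation was tested on simulated data. The members and lists were chosen with earlier results of these data known. All members are named. From each related list the rule takes the 2 highest, the 2 lowest and any past 2-fold, and most of those described are a selection from these. Col4a1, Col4a2, Itgb1, Itga6 and the undetected Lama1 and Lamb3 are named outside that rule. Some items of these lists are not reported here.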

Additional observations from a re-analysis of the deposited data

How the results depend on the processing

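Alternatives for the scaling were the array median, quantiles, loess, normexp (offset 50) followed by quantiles, and the authors' deposited table. Others kept outlier spots, dropped the filter on dim probes or applied it to each array, took a gene's probe mean or its most 3-prime probe, and set limits of 1.5-fold and 3-fold. Scaling to spike-in probes was not run, because the medians of the 10 spike-in probes, 8.43 to 44.8 and 8.59 to 49.3, lay near background. Counts and medians without Lama2 were added after seeing the data. Lama4 was the 1 gene counted as lower under all of these. The count of genes at least 2-fold higher, 1 in the main setting, was 0 with normexp, 0 in the authors' deposited table, 3 with a limit of 1.5-fold and 0 with 3-fold. Each other count and median, 44 of 48, stayed within 1.5 times the count or, for a median, within the pooled spot SD of 0.482. The shares of all genes past 1.5-fold and 3-fold were not calculated, so those counts have no background. The 3 genes at 1.5-fold include Lama2, whose difference equalled its spot SD, and 17.6% of all genes were as high as Lama2 or higher. Of 80 gene differences under alternatives, 66 moved by less than their spot SD. The other 14 all came with quantile normalization, loess or normexp. The filters and probe choices left nearly every gene at its main value. Keeping outlier spots, the array median and the authors' deposited table shifted all 8 genes alike, by less than any spot SD. Most of the 66 therefore could not have moved, and they do not measure robustness. Among all genes, the shares 2-fold lower and higher were 2.53% and 1.86% with normexp, against 3.52% and 5.4%. No paired analysis was possible because each group has 1 array, and no replicate could be left out. Dim probes limit Lama2 and Nid2, which read near or below the lowest well-measured intensity.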
